A study of Homo sapiens with 12 samples.

Results

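The IRE1 and ATF6 arms of the unfolded protein response were followed through 10 genes in RCC4 cells after knockdown of MESH1. The genes were chosen by symbol from the count files and comprised the sensors ERN1 and ATF6, the transcription factor XBP1, the ER chaperones HSPA5 and HSP90B1, the co-chaperones DNAJB9, DNAJC3 and SDF2L1, and the ER-associated degradation genes HERPUD1 and EDEM1. All 10 were found among 23710 gene symbols, and all 10 passed the filter on low counts in each comparison.

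Cells read the load of unfolded protein in the endoplasmic reticulum (ER) through 3 membrane sensors, IRE1 (encoded by ERN1), ATF6 and PERK. Active IRE1 cuts the XBP1 transcript, which is then joined again and translated into the factor XBP1s, while ATF6 moves to the Golgi, where proteases release its transcription factor domain. XBP1s and ATF6 switch on genes for ER chaperones and for ER-associated degradation (ERAD), the export of misfolded proteins to the proteasome. The ER stress response element (ERSE) and its variant ERSE-II are promoter motifs that these factors are known to bind. A count per gene does not separate spliced from unspliced XBP1, so the values below give the amount of each transcript and not the activity of the sensors.

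RCC4 is a human clear cell renal carcinoma line, and MESH1, listed under the symbol HDDC3, is a phosphatase that uses NADPH as a substrate. The libraries formed 2 experiments, each with its own control, and all cells received 40 pmol of siRNA by lipid transfection and were collected after 72 hours. In experiment 1, 3 libraries of siMESH1-CDS were compared with 3 of a non-targeting siRNA (siNT), and in experiment 2, 3 libraries of siMESH1-7002 were compared with 3 further siNT libraries. The siRNA, the experiment and the sequencing lanes changed together between the experiments and cannot be told apart. The knockdown was transient and made in 1 cell line. The labels call the libraries biological replicates without describing the cultures, so p-values measure only the spread between these libraries. The siMESH1-CDS sequence matched exon 2 of 4 of the HDDC3 transcript, in the coding sequence (GRCh38 chr15:90932064-90932082, minus strand), and the siMESH1-7002 target lay in exon 4, in the 3′UTR (chr15:90931109-90931129). They are shown because both comparisons below rest on them.
siMESH1-CDS: gggaaucacugacauugug
siMESH1-7002: ctgaaggtctcctgctaacta

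The promoter sequences of RefSeq (GRCh38.p14, 250 bases before to 50 bases after the start) had an entry for all 10 genes. ERSE, written as CCAAT, 9 bases of any kind and CCACG, was searched on both strands. It was present in the promoters of 3 members, XBP1, HSPA5 and HSP90B1, and in 27 of 35116 promoters overall (0.0769%). ERSE-II, written as ATTGG, 1 base of any kind and CCACG, was present in 2 members, HERPUD1 and SDF2L1, and in 19 promoters overall (0.0541%). These sites are shown with 5 bases on each side because they are the exact matches found in the members, and capitals mark the fixed letters of the motif.
XBP1 ERSE: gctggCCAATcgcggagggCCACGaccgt
HSPA5 ERSE: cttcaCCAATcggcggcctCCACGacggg
HSP90B1 ERSE, first: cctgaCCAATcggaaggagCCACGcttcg
HSP90B1 ERSE, second: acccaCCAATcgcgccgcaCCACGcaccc
HERPUD1 ERSE-II: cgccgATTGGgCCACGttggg
SDF2L1 ERSE-II: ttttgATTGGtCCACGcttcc
The stretches printed lie at chr22:28800598-28800626 for XBP1, chr9:125241386-125241414 for HSPA5, chr12:103930211-103930239 and chr12:103930316-103930344 for HSP90B1, chr16:56932020-56932040 for HERPUD1 and chr22:21642109-21642129 for SDF2L1. XBP1 and HSPA5 are minus-strand genes and the other 3 are plus-strand genes. Each site is written in the direction of its motif, which is that of the gene except for the second site of HSP90B1 and the site of SDF2L1. With at most 1 mismatch to its fixed letters, ERSE was present in 6 members and in 545 promoters (1.55%), and DNAJC3, HERPUD1 and SDF2L1 then joined the 3 exact matches. In SDF2L1 this near match overlapped the ERSE-II site. The core of the unfolded protein response element, TGACGTGG, was in none of the 10 promoters and in 256 overall (0.729%), and the cyclic AMP response element, TGACGTCA, was in none of the 10 and in 649 overall (1.85%). ERN1, ATF6, DNAJB9 and EDEM1 held none of the motifs searched in these windows.

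Reads in genes per library lay between 34063155 and 49134129 in experiment 1 and between 24787804 and 31651125 in experiment 2. HDDC3 fell from 7.48 ± 0.913 to 0.158 ± 0.158 CPM (read counts scaled to library size with TMM, mean ± SD, n = 3 each) with siMESH1-CDS and from 13.2 ± 0.630 to 1.38 ± 0.291 CPM with siMESH1-7002. The siMESH1-CDS libraries stood apart from their siNT libraries in read assignment and by base composition. Reads that fell in no annotated feature made up 18.4% to 20.8%, against 14.7% to 15.5% with siNT. Genes with reads numbered 14482 to 14944, against 15743 to 15775. When tested genes were split into 10 classes of transcript GC content, class medians of the log2 fold change ran from 1.11 in the class of lowest GC to -3.67 in that of highest GC, against 0.14 to -0.09 with siMESH1-7002. For this reason each member's change with siMESH1-CDS is given beside the median of its GC class and after a correction for GC content in each library, and the lists and the genes named from them are given with and without the correction. The correction left the median change of all genes at 0.18 with siMESH1-CDS and at 0.075 with siMESH1-7002. Calls made after it test against 0 and not against these medians. HDDC3 held 0 to 11 reads in the siMESH1-CDS libraries, and its GC class had a median of -1.64. GC correction took its log2 fold change from -5.56 to -3.67 with siMESH1-CDS and from -3.25 to -3.12 with siMESH1-7002. The difference of HDDC3 between the siRNAs went from -2.47 (edgeR adjusted p = 0.00370) to -0.46 (adjusted p = 0.380). The 8 renal carcinoma markers summed to 3639 to 4059 CPM in experiment 1 and to 7284 to 8277 CPM in experiment 2, most of it VIM, which was at 3403 to 3567 CPM in experiment 1. Of the other 7, PAX8, PAX2, KRT8, KRT18, CA9 and NDUFA4L2 were lower in every siMESH1-CDS library than in any siNT library of that experiment and EGLN3 was higher. PAX8 was at 150 to 183 CPM with siNT and 31.2 to 85.1 CPM with siMESH1-CDS, KRT18 at 69.0 to 84.5 and 0.286 to 7.11 CPM, and EGLN3 at 45.0 to 46.4 and 94.8 to 130 CPM. In experiment 2, EGLN3 was lower with siMESH1-7002, at 67.9 to 70.0 CPM against 167 to 168 CPM with siNT. VIM, KRT8 and KRT18 were also lower there, and CA9 and NDUFA4L2 higher, without overlap between groups. PAX8 and PAX2 overlapped. The part of these shifts in the members' values was not tested. Of the leukocyte and endothelial markers, PTPRC, CD3E, PECAM1, CDH5 and VWF stayed at or under 0.158 CPM in all libraries, while CD68 was at 45.1 to 62.4 CPM in siNT, 1.09 to 7.39 CPM with siMESH1-CDS and 104.5 to 146 CPM in experiment 2.

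**Figure D1:**
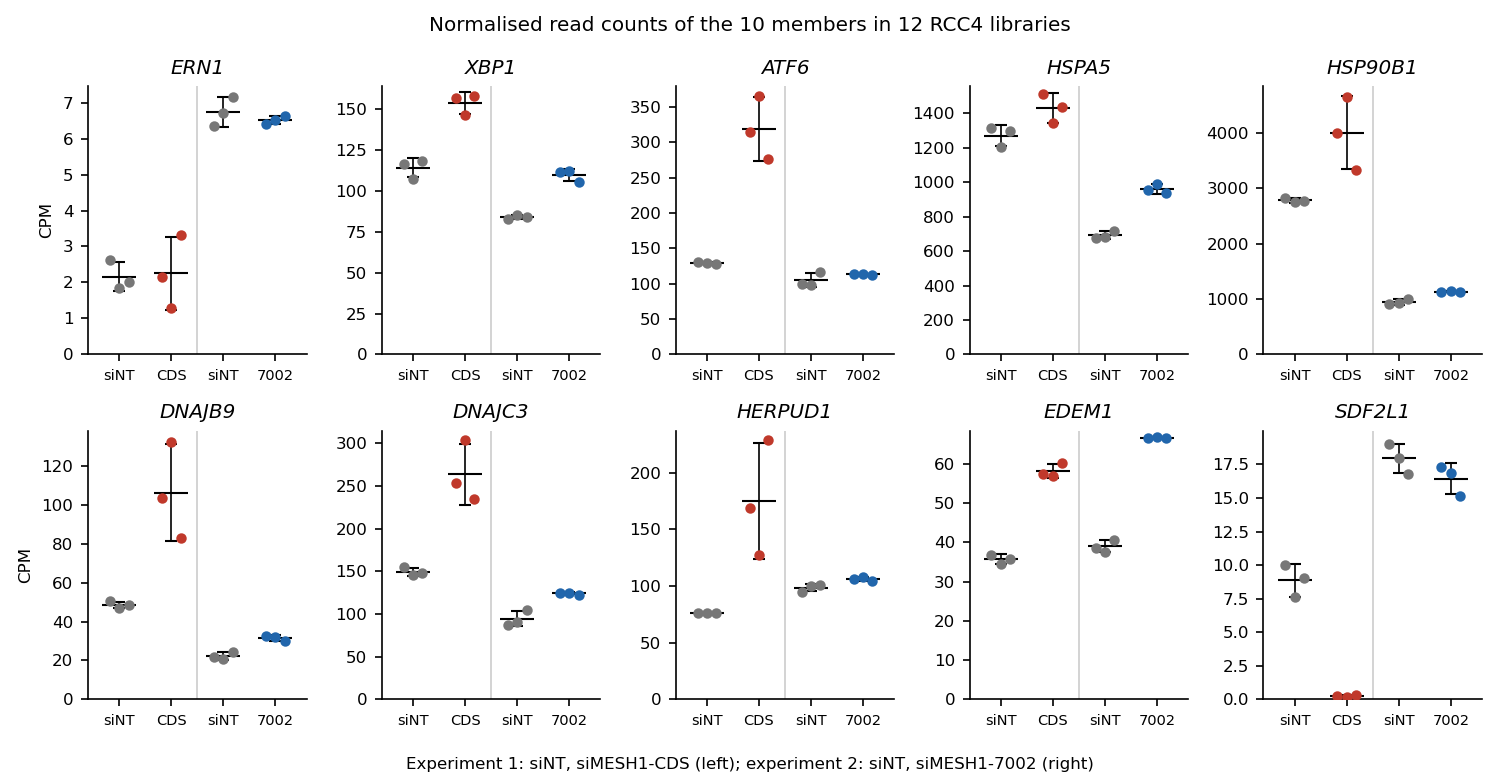
Normalised read counts (CPM, from 0) of the 10 members in each library, as points, with the mean and SD of the 3 libraries of a group as bars, for experiment 1 (left of the grey line) and experiment 2 (right). The 3 siMESH1-7002 libraries of EDEM1 sit between 66.5 and 66.7 CPM above siNT at 37.6 to 40.6 CPM, and the siMESH1-CDS libraries of SDF2L1 lie near 0.

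The comparison of each siRNA with siNT asked whether loss of MESH1 changed the transcripts of these arms. With siMESH1-CDS, 7 of the 10 members rose and 1 fell, where 36.9% of all 13395 genes tested were called higher and 37.2% lower (edgeR quasi-likelihood test, adjusted p under 0.05). With siMESH1-7002, 6 members rose and 0 fell, where 26.6% of 13568 genes were called higher and 26.7% lower. The genes called with each siRNA were XBP1, HSP90B1, DNAJB9, DNAJC3 and EDEM1, all of them higher, which is 5 of 10 members against 15.5% of the 12824 genes tested with both. The members were chosen with earlier results of these data known, so these shares are only a description. After GC correction HSP90B1 and DNAJC3 lost the call with siMESH1-CDS, and ATF6 and HERPUD1 gained one with siMESH1-7002, so that 5 members were again called higher with each siRNA, against 21.6% of all genes. ATF6 and HERPUD1 were called higher with siMESH1-CDS alone, HSPA5 with siMESH1-7002 alone, SDF2L1 was called lower with siMESH1-CDS alone, and ERN1 was called with neither. The median log2 fold change of the 10 members was 0.61 with siMESH1-CDS and 0.32 with siMESH1-7002, against -0.05 and 0.005 over all genes tested. GC correction brought the medians with siMESH1-CDS to 0.39 for the members and 0.18 for all genes, and those with siMESH1-7002 to 0.32 and 0.075. The count of members called higher with siMESH1-CDS was 5 after GC correction, when 41.3% of genes were called higher and 26.6% lower (5530 and 3566 in place of 4945 and 4981), and 5 with scaling by library size. GC correction raised the count with siMESH1-7002 to 8, when 39.3% of genes were called higher and 23.6% lower (5330 and 3198 in place of 3613 and 3622).

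ERN1, which encodes the kinase and RNase IRE1, was the least expressed member outside the siMESH1-CDS libraries, in which SDF2L1 was lower. Its level was 2.61, 1.86 and 2.02 CPM in the siNT libraries of experiment 1 and 2.15, 1.30 and 3.31 CPM with siMESH1-CDS. In experiment 2 it was 6.34, 6.71 and 7.17 CPM with siNT and 6.41, 6.52 and 6.63 CPM with siMESH1-7002. The groups overlapped in both experiments, and no change was detected with either siRNA (log2 fold change 0.06, SE 0.372, edgeR adjusted p = 0.897, and -0.04, SE 0.0971, adjusted p = 0.725). An approximate 95% interval of the change ran from -0.67 to 0.78 with siMESH1-CDS, where the counts were 50 to 115 reads. With siMESH1-7002 it ran from -0.24 to 0.15. These intervals take the SE as normal and are narrower than the F test on few libraries would give. Genes of its GC class had a median of -0.07 with siMESH1-CDS, and after GC correction the change of ERN1 was 0.53, which did not pass the test (adjusted p = 0.0959).

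XBP1, on chromosome 22, encodes the transcription factor that IRE1 activates by cutting its messenger RNA. Its level was 117, 108 and 119 CPM in siNT and 157, 146 and 159 CPM with siMESH1-CDS, and all knockdown libraries lay above all controls. The rise was 34.5% (log2 fold change 0.43, SE 0.0836, edgeR adjusted p = 0.00485). Genes of its GC class had a median of -0.07, and after GC correction the change of XBP1 was 0.83. In experiment 2 XBP1 rose from 82.8, 85.1 and 84.1 CPM to 112, 113 and 106 CPM, again without overlap, which is a rise of 30.9% (0.39, SE 0.0483, adjusted p = 3.83e-06). Scaling by library size, which moved the median of all genes in experiment 1 to -0.31, left XBP1 at 0.17 with siMESH1-CDS and ended the call (adjusted p = 0.172).

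ATF6, on chromosome 1, encodes the sensor that is cut in the Golgi. It stood at 131, 129 and 128 CPM in siNT and at 315, 366 and 275 CPM with siMESH1-CDS, so that each knockdown library had more than the highest control. The log2 fold change was 1.30 (SE 0.120, edgeR adjusted p = 4.44e-04). The transcript is poor in GC (41.3%), its class had a median of 0.84, and 0.61 was left after GC correction (adjusted p = 9.29e-05). In experiment 2, the 3 siMESH1-7002 libraries, at 114, 114 and 112 CPM, fell within the range of siNT, at 99.0, 98.8 and 116 CPM, and the change did not pass the test (0.11, SE 0.0596, adjusted p = 0.131). The highest control decided this, since without siNT replicate 3 ATF6 was called higher (0.19, adjusted p = 6.30e-05). ATF6 was also called after GC correction (0.11, adjusted p = 0.0120), when the median of all genes was 0.075. Among the siNT libraries of experiment 2, replicate 3 was highest for all members but XBP1 and SDF2L1, and lowest for SDF2L1. The calls of ATF6, HERPUD1 and SDF2L1 that changed without it thus rest on the same library.

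HSPA5, on chromosome 9, encodes BiP, the main Hsp70 chaperone of the ER, which also holds the sensors inactive. Its level in experiment 2 was 679, 682 and 717 CPM with siNT and 957, 989 and 936 CPM with siMESH1-7002. The groups lay far apart compared with their spread, and HSPA5 rose by 38.7% (log2 fold change 0.47, SE 0.0412, edgeR adjusted p = 5.91e-08). In experiment 1 it was 1312, 1203 and 1296 CPM with siNT and 1514, 1342 and 1435 CPM with siMESH1-CDS. The siMESH1-CDS libraries lay just above the controls, and the change did not pass the test (0.17, SE 0.0938, adjusted p = 0.142). Genes of its GC class had a median of 0.33, and the change of HSPA5 was -0.022 after GC correction (adjusted p = 0.788) and -0.090 with library size scaling. It was called without siMESH1-CDS replicate 2, the lowest of the 3 (0.23, adjusted p = 0.0300).

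HSP90B1, on chromosome 12, encodes GRP94, the Hsp90 chaperone of the ER and the most abundant transcript among the members. With siMESH1-CDS it rose from 2824, 2743 and 2769 CPM to 4002, 4651 and 3335 CPM (log2 fold change 0.52, SE 0.144, edgeR adjusted p = 0.0171). The 3 knockdown libraries lay above the controls but spread over a wide range, and genes of the same GC class had a higher median, 0.84. After GC correction the change was -0.087 (adjusted p = 0.268), and the call was also lost with library size scaling (0.25, adjusted p = 0.0617), with the lane as a covariate (0.39, adjusted p = 0.0861), and without siMESH1-CDS replicate 1 or any 1 of the siNT libraries (adjusted p = 0.0569 to 0.0625). With siMESH1-7002 HSP90B1 rose from 917, 924 and 1002 CPM to 1127, 1147 and 1125 CPM, a smaller rise of 19.6% with no overlap (0.26, SE 0.0426, adjusted p = 7.83e-05). A single fit of all 4 groups, which shares the larger spread of experiment 1, ended this call (adjusted p = 0.145).

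DNAJB9, on chromosome 7, encodes ERdj4, a J-domain partner of BiP and a well-known target of XBP1s. It stood at 50.3, 46.8 and 48.4 CPM in siNT and at 103, 132 and 82.8 CPM with siMESH1-CDS, and in experiment 2 it rose from 21.8, 20.5 and 24.3 CPM to 32.7, 32.1 and 30.0 CPM. Neither experiment had any overlap between groups. The log2 fold change was 1.13 with siMESH1-CDS (SE 0.181, edgeR adjusted p = 0.00230) and 0.51 with siMESH1-7002 (SE 0.0718, adjusted p = 1.68e-05). The median of its GC class with siMESH1-CDS, 1.02, was nearly as large, and after GC correction 0.37 was left, which still passed the test (adjusted p = 0.00676). The median of all genes tested was 0.18 after the same correction.

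DNAJC3, on chromosome 13, encodes p58IPK, a J-domain co-chaperone known as an inhibitor of PERK. It rose from 155, 145 and 148 CPM to 253, 304 and 235 CPM with siMESH1-CDS (log2 fold change 0.82, SE 0.116, edgeR adjusted p = 0.00152). The rise was smaller than the median of its GC class (1.02), and after GC correction 0.05 was left (adjusted p = 0.433). With siMESH1-7002 DNAJC3 rose from 87.8, 91.3 and 105 CPM to 125, 125 and 123 CPM (0.39, SE 0.0599, adjusted p = 3.74e-05), and GC correction left 0.37. All 3 knockdown libraries of experiment 2 were above the highest control.

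SDF2L1, on chromosome 22, encodes an ER protein that works with BiP and the J-domain protein DNAJB11, and it was the member with the highest GC content (65.5%). In experiment 1 it was at 10.0, 7.59 and 9.02 CPM with siNT, from 343 to 534 reads, and at 0.221, 0.156 and 0.345 CPM with siMESH1-CDS, from 6 to 12 reads. It thus fell to 2.73% of the control (log2 fold change -5.19, SE 0.346, edgeR adjusted p = 2.50e-04). Genes of its GC class had a median of -3.67, and GC correction left -1.26 (adjusted p = 0.0101). In experiment 2, SDF2L1 was at 19.0, 18.01 and 16.8 CPM with siNT and at 17.3, 16.9 and 15.2 CPM with siMESH1-7002. These groups overlapped and the change did not pass the test (-0.13, SE 0.0778, adjusted p = 0.181), although it did without siNT replicate 3 (-0.17, adjusted p = 0.0415).

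HERPUD1, on chromosome 16, encodes an ER membrane protein that organises the ERAD machinery. Its siNT libraries of experiment 1 were almost the same, at 76.2, 76.3 and 76.0 CPM, while siMESH1-CDS gave 168, 127 and 229 CPM (log2 fold change 1.20, SE 0.215, edgeR adjusted p = 0.00348). Genes of its GC class had a median of -0.07, and GC correction left HERPUD1 at 1.23. In experiment 2 it went from 94.9, 99.6 and 101 CPM to 107, 108 and 104 CPM, a difference of 8.10% between groups that did not overlap and that missed the threshold (0.11, SE 0.0477, adjusted p = 0.0570). HERPUD1 was called higher with siMESH1-7002 after GC correction (0.19, adjusted p = 7.48e-05) and without siNT replicate 3 (0.13, adjusted p = 0.00537). The correction also moved the median of all genes, from 0.005 to 0.075.

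EDEM1, on chromosome 3, encodes a lectin that directs misfolded glycoproteins to ERAD and is a known target of XBP1s. It was at 36.8, 34.4 and 35.8 CPM in siNT and at 57.3, 57.0 and 60.2 CPM with siMESH1-CDS. In experiment 2 it was at 38.6, 37.6 and 40.6 CPM with siNT and at 66.5, 66.7 and 66.5 CPM with siMESH1-7002. The knockdown groups lay apart from the controls in both experiments with little spread. EDEM1 rose by 63.0% with siMESH1-CDS (log2 fold change 0.70, SE 0.0945, edgeR adjusted p = 0.00127) and by 70.9% with siMESH1-7002 (0.77, SE 0.0534, adjusted p = 3.08e-09). The second was the largest change of any member with siMESH1-7002. Its GC class had a median of 0.33 with siMESH1-CDS, and after GC correction the changes were 0.41 (adjusted p = 0.00330) and 0.81.

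**Figure D2:**
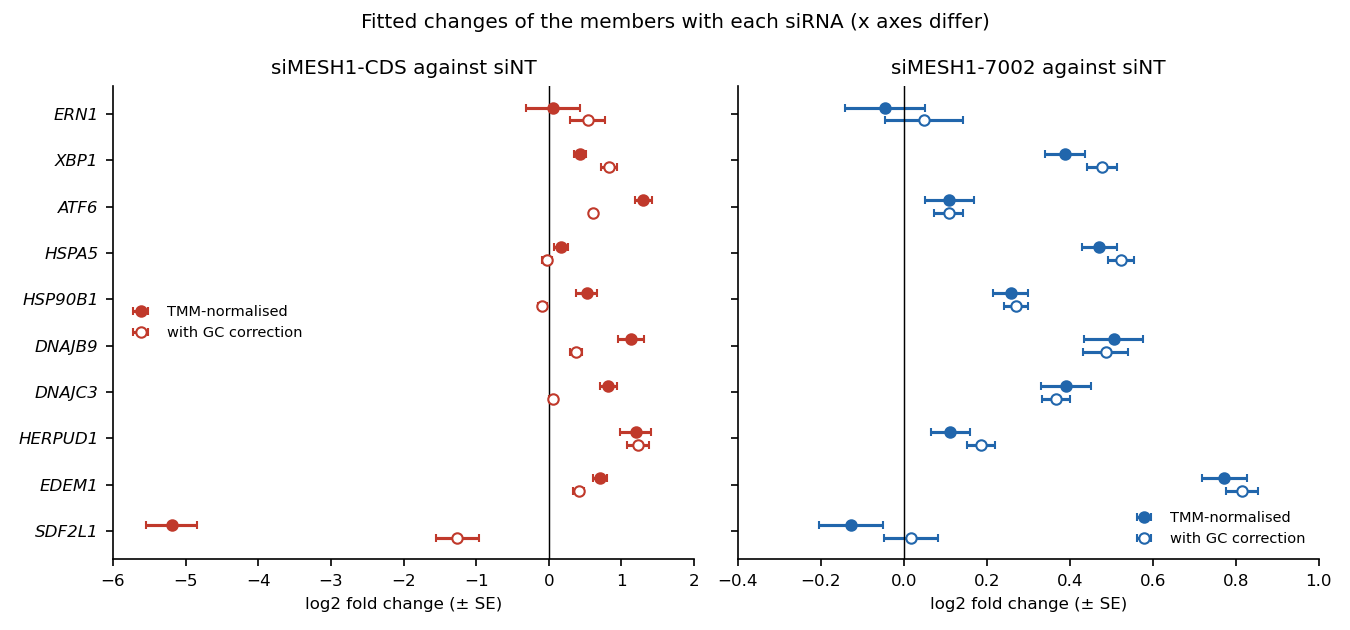
Log2 fold changes of the 10 members against siNT, with SE from the edgeR fit, for siMESH1-CDS (left) and siMESH1-7002 (right). Filled points are TMM-normalised and open points carry the GC correction, which moved SDF2L1 with siMESH1-CDS from -5.19 to -1.26 and HSP90B1 from 0.52 to -0.087 and changed the values of siMESH1-7002 less.

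The siMESH1-CDS results differed in their place beside the GC trend. ATF6, HERPUD1, XBP1 and EDEM1 lay above the median of their GC class and were called higher with and without the correction. DNAJB9 lay just above its class median and kept its call, while HSP90B1 and DNAJC3 lay below it and lost their calls. Within the siMESH1-CDS group, the libraries differed in the same manner as the trend. The median log2 difference from siNT in the class of lowest GC was 1.07, 1.43 and 0.77 in replicates 1, 2 and 3, and in the class of highest GC it was -3.72, -4.77 and -2.63. ATF6, HSP90B1, DNAJB9 and DNAJC3, which are poor in GC, were highest in replicate 2 and lowest in replicate 3, and SDF2L1 was lowest in replicate 2. HERPUD1, XBP1, EDEM1 and ERN1 went the other way, with their highest values in replicate 3 and their lowest in replicate 2. HSPA5 was also lowest in replicate 2. The part of library composition in these differences was not tested further. Sequencing lanes 4 and 6 each held 1 library of either group of experiment 1, which allows no test, and the log2 differences within them were 1.08 and 1.29 for ATF6, 1.59 and 1.15 for HERPUD1, 0.44 and 0.40 for XBP1 and 0.71 and 0.68 for EDEM1. Within the same lanes they were 0.72 and 1.09 for DNAJB9, 0.60 and 0.77 for DNAJC3, 0.24 and 0.53 for HSP90B1 and -4.68 and -5.07 for SDF2L1. In all 8, every siMESH1-CDS library lay beyond every siNT library, so the sign within a lane could not differ.

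**Figure D3:**
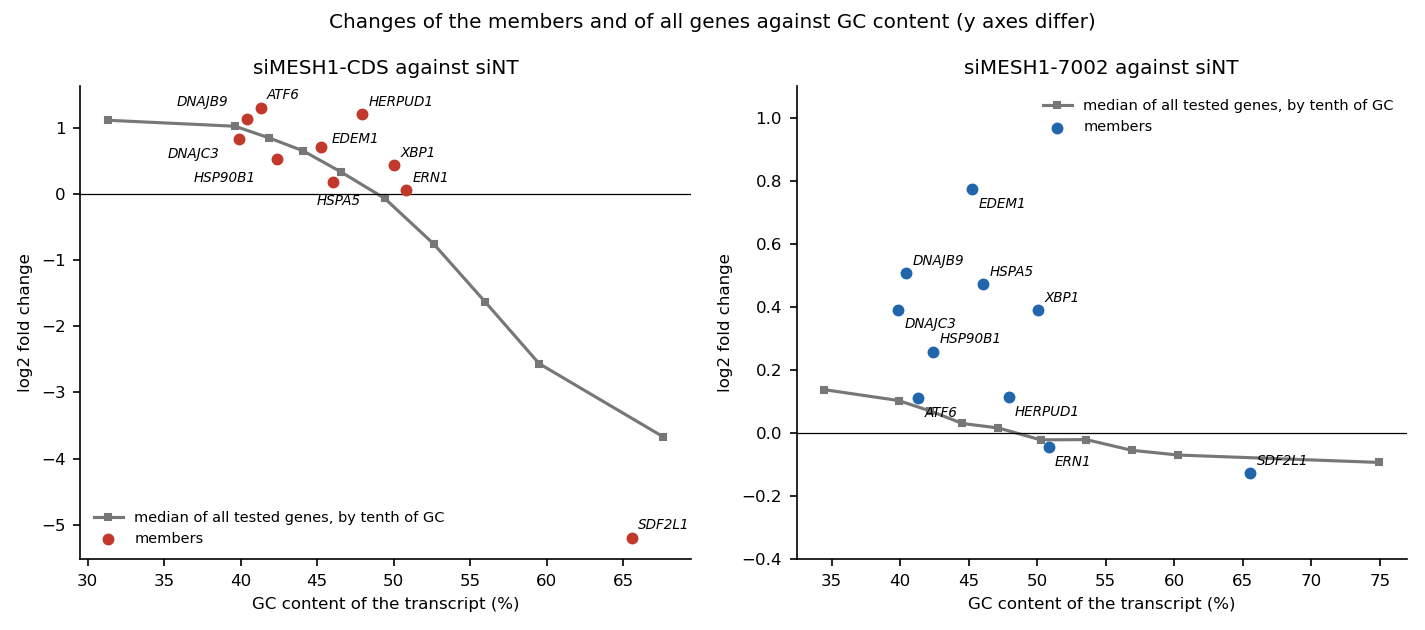
Log2 fold change (y axis) against the GC content of the transcript in percent (x axis) for the 10 members (coloured points) and for the medians of all tested genes in 10 classes of GC (grey line), with siMESH1-CDS (left) and siMESH1-7002 (right). With siMESH1-CDS the grey line falls from 1.11 to -3.67 and SDF2L1 lies at its lower end at -5.19. With siMESH1-7002 the line stays between 0.14 and -0.09 and EDEM1 lies highest at 0.77.

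The changes with the 2 siRNAs were then compared with each other in 1 fit of all 12 libraries. The difference passed the test for 4 of the 10 members, where it did for 69.7% of 14154 genes. The change of ATF6 was larger with siMESH1-CDS, by 1.04 on the log2 scale (SE 0.144, edgeR adjusted p = 1.35e-04), and so was that of HERPUD1, by 0.94 (SE 0.234, adjusted p = 0.00489). The change of HSPA5 was smaller with siMESH1-CDS, where no rise had passed the test, with a difference of -0.45 (SE 0.102, adjusted p = 0.00271). SDF2L1 differed by -5.22 (SE 0.264, adjusted p = 4.49e-07). After GC correction these differences were 0.43 for ATF6, 1.01 for HERPUD1, -0.60 for HSPA5 and -1.62 for SDF2L1, and all passed the test. For the other 6 members the difference did not pass the test. Its approximate 95% interval ran from -0.30 to 0.07 for XBP1 and from -0.77 to 0.66 for ERN1. These intervals also take the SE as normal and are too narrow for so few libraries. With GC correction 8 members passed, where 61.5% of genes did, and without siMESH1-CDS replicate 3 there were 7, where 77.6% of genes did. The sign turned for XBP1, from -0.11 to 0.34 (adjusted p = 0.0281), for HSP90B1, from 0.12 to -0.42 (adjusted p = 3.32e-04), and for DNAJC3, from 0.28 to -0.39 (adjusted p = 0.00111), and EDEM1 went from -0.22 to -0.46 (adjusted p = 5.48e-04). For ERN1 (0.49, adjusted p = 0.0969) and DNAJB9 (-0.19, adjusted p = 0.118) the sign turned as well and the difference still missed the threshold. Each siRNA was run in 1 experiment only, so a difference between siRNAs and a difference between experiments cannot be told apart.

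The members covered a wide range of levels. Per kilobase of transcript, the mean in siNT of experiment 1 was 972 CPM for HSP90B1, 325 for HSPA5, 61.9 for XBP1, 26.7 for DNAJC3, 25.8 for HERPUD1, 17.9 for DNAJB9, 17.2 for ATF6, 10.3 for SDF2L1, 5.81 for EDEM1 and 0.275 for ERN1. The ranges of the 3 libraries overlapped only between DNAJB9 and ATF6 among neighbours in this order. In siNT of experiment 2 the order was HSP90B1 at 332 CPM per kilobase, HSPA5 at 177, XBP1 at 45.4, HERPUD1 at 33.4, SDF2L1 at 20.7, DNAJC3 at 16.95, ATF6 at 13.97, DNAJB9 at 8.18, EDEM1 at 6.34 and ERN1 at 0.855, with no overlap between neighbours. HSP90B1, HSPA5 and XBP1 thus held the first 3 places and EDEM1 and ERN1 the last 2 in both control groups. The experiments were normalised separately, so these levels are not compared between them.

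The wider machinery of the ER was described with 7 gene lists, by counts and medians. They are read against all genes tested, of which 36.9% were called higher and 37.2% lower with siMESH1-CDS (median -0.05) and 26.6% higher and 26.7% lower with siMESH1-7002 (median 0.005). With GC correction these shares were 41.3% and 26.6% (median 0.18) and 39.3% and 23.6% (median 0.075). Of 24 other ER folding factors tested with siMESH1-7002, 13 rose and 1 fell (median log2 fold change 0.16). With siMESH1-CDS, 7 of 23 rose and 8 fell (median -0.37). After GC correction 18 rose and 2 fell with siMESH1-7002, and 9 rose and 8 fell with siMESH1-CDS. PDIA3, CANX and HSPA13 rose with each siRNA. PDIA3, a protein disulfide isomerase for glycoproteins, rose by 0.86 (edgeR adjusted p = 0.00150) with siMESH1-CDS and by 0.21 (adjusted p = 0.00100) with siMESH1-7002, and CANX, the lectin chaperone calnexin, by 1.33 (adjusted p = 6.30e-04) and 0.20 (adjusted p = 0.00166). With siMESH1-CDS, GC correction left 0.39 for PDIA3 and 0.65 for CANX. HSPA13, an Hsp70 relative of the ER, rose by 0.85 and 0.25, and its change with siMESH1-CDS was -0.071 after GC correction. Another 6 folding factors moved in opposite directions, lower with siMESH1-CDS and higher with siMESH1-7002. Of these, chosen after their values were seen, HYOU1 changed by -3.63 and 0.18, CALR by -2.11 and 0.34, PDIA4 by -1.92 and 0.32 and CRELD2 by -4.03 and 0.37, and their transcripts hold 53.0% to 60.7% GC. With siMESH1-CDS, GC correction left -2.35 for HYOU1, -0.92 for PDIA4 and -0.999 for CRELD2, and -1.12 for CALR, which no longer passed the test (adjusted p = 0.0799).

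**Figure D4:**
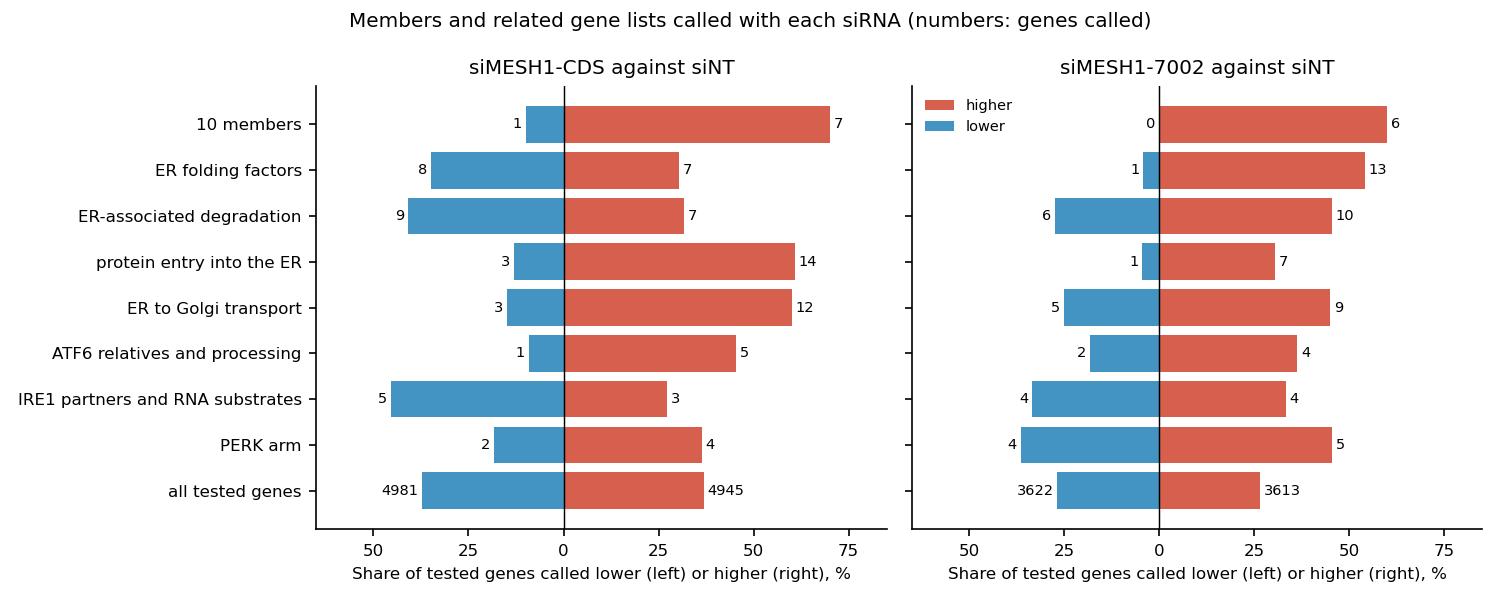
Share of the tested genes of each list called higher (right, red) or lower (left, blue) than siNT by edgeR, in percent, with the number of genes called beside each bar, for siMESH1-CDS (left panel) and siMESH1-7002 (right panel). With siMESH1-7002, 13 of 24 ER folding factors were called higher and 1 lower, beside 3613 and 3622 of all 13568 genes.

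Of 22 ERAD genes besides the members, 7 rose and 9 fell with siMESH1-CDS (median -0.33), shares near those of all genes, and 10 rose and 6 fell with siMESH1-7002 (median -0.009). After GC correction 7 rose and 7 fell with siMESH1-CDS and the median turned to 0.055, and 10 rose and 4 fell with siMESH1-7002. FAM8A1, EDEM3, HERPUD2 and NPLOC4 went the same way with each siRNA. EDEM3, a relative of EDEM1, rose by 0.87 and 0.31, HERPUD2, a relative of HERPUD1, by 1.25 and 0.30, and FAM8A1, a partner of the ubiquitin ligase HRD1, by 0.94 and 0.42. After GC correction the changes with siMESH1-CDS were 0.05 for EDEM3, 1.51 for HERPUD2 and 0.19 for FAM8A1, and those of EDEM3 and FAM8A1 no longer passed the test. NPLOC4, a cofactor of the ATPase VCP, fell by 2.01 with siMESH1-CDS and by 0.23 with siMESH1-7002 on the log2 scale, and GC correction left -1.50 and -0.14. SEL1L, the adaptor of HRD1, was singled out after its values were seen, since it rose with siMESH1-CDS from 191 ± 3.51 to 319 ± 50.6 CPM (0.74, edgeR adjusted p = 0.00315) and fell with siMESH1-7002 from 114 ± 11.2 to 49.4 ± 1.29 CPM (-1.21, adjusted p = 1.04e-10). After GC correction the first was -0.052 (adjusted p = 0.310) and the second -1.24.

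Of 23 genes for protein entry into the ER, 14 rose and 3 fell with siMESH1-CDS (median 0.59), and 7 rose and 1 fell with siMESH1-7002 (median 0.04). After GC correction 9 rose and 4 fell with siMESH1-CDS, with a median of 0.12 that lay below that of all genes, and 10 rose and 3 fell with siMESH1-7002. SEC61G, a subunit of the translocon, rose by 0.95 and 0.28, and TRAM1, a translocon partner, by 1.74 and 0.21. SPCS3, a signal peptidase subunit, rose by 1.04 and 0.25, and SRP14, of the signal recognition particle, by 0.46 and 0.12, but with siMESH1-CDS these 2 were at 0.12 and -0.049 after GC correction, when SEC61G was at 1.04 and TRAM1 at 0.89. For ER to Golgi transport, 12 of 20 rose and 3 fell with siMESH1-CDS (median 0.71) and 9 rose and 5 fell with siMESH1-7002 (median 0.08). GC correction left 12 higher and 2 lower with siMESH1-CDS (median 0.30), and gave 12 higher and 4 lower with siMESH1-7002. The COPII coat genes SEC23A (1.39 and 0.47), SEC24D (0.50 and 0.29) and SEC31A (0.72 and 0.28) and the Golgi tether gene GOLGB1 (1.72 and 0.37) rose with each siRNA. All 4 were also called higher with siMESH1-CDS after GC correction, by 0.24 to 1.07.

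Among 11 relatives and processing factors of ATF6, 5 rose and 1 fell with siMESH1-CDS (median 0.29), and 4 rose and 2 fell with siMESH1-7002 (median 0.08). After GC correction 10 of the 11 rose with siMESH1-CDS, where 41.3% of all genes did, and 5 rose with siMESH1-7002. CREBZF, a leucine zipper factor, rose by 0.87 and 0.28, and CREB3L2, a transcription factor that is cut by the same Golgi proteases as ATF6, by 0.52 and 0.15, and with siMESH1-CDS GC correction left 0.48 and 0.59. Of the IRE1 partners and RNA substrates, 3 of 11 rose and 5 fell with siMESH1-CDS (median -0.14) and 4 of 12 rose and 4 fell with siMESH1-7002 (median 0.05). After GC correction 5 rose and 4 fell with siMESH1-CDS, and 8 rose and 4 fell with siMESH1-7002. SCARA3, whose transcript is a known substrate of the IRE1 RNase, fell from 75.4 to 5.10 CPM with siMESH1-CDS (-3.89, edgeR adjusted p = 0.00409) and from 59.0 to 17.8 CPM with siMESH1-7002 (-1.73, adjusted p = 1.10e-12), and GC correction left -1.60 with each. C22orf28, now named RTCB, encodes the ligase that joins the cut XBP1 transcript, and it fell by 1.47 (edgeR adjusted p = 0.0337) and by 0.42 (adjusted p = 7.46e-06) on the log2 scale. The first call was lost without siMESH1-CDS replicate 1 or any 1 siNT library (adjusted p = 0.0742 to 0.103), and GC correction left -1.26 and -0.33. MAPK8, a kinase downstream of IRE1 (JNK1), rose by 1.32 and 0.61, of which GC correction left 0.49 and 0.56. SPARC, another IRE1 substrate that was named after its values were seen, went up, by 1.63 (edgeR adjusted p = 0.00222) and 1.54 (adjusted p = 4.11e-08), from 0.597 and 2.54 CPM, and GC correction left 1.59 and 1.60. The substrates of the list therefore did not move one way.

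The PERK arm was the third branch described. Of 11 genes, 4 rose and 2 fell with siMESH1-CDS (median -0.56), where the 4 are a share like that of all genes, and 5 rose and 4 fell with siMESH1-7002 (median -0.003). ATF3, a transcription factor of the stress response, rose by 1.22 (edgeR adjusted p = 0.00252) and 0.49 (adjusted p = 1.84e-04), and by 1.73 and 0.59 after GC correction. TRIB3, a pseudokinase induced by ATF4 and CHOP, fell by 2.35 and by 0.62 on the log2 scale. Its change with siMESH1-CDS was 0.45 after GC correction (adjusted p = 0.0745), and without siMESH1-CDS replicate 1 or any 1 siNT library it missed the threshold (adjusted p = 0.0597 to 0.0834). The median of the list with siMESH1-CDS turned to 0.78 after GC correction, when 4 genes rose and 0 fell, and with siMESH1-7002 6 rose and 5 fell.

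The genes whose pattern was most like that of HSPA5 were found by the Pearson correlation of log2 CPM, centred on the mean of each experiment, over 12 libraries and 8117 genes with at least 10 CPM in each experiment. They were TNFRSF10D (0.975), CTDSPL (0.964), ECI2 (0.956), WSB2 (0.955) and TRIM55 (0.951). Among the 7 other members at these levels, EDEM1 ranked 40 (0.899) and XBP1 ranked 61 (0.877), followed by DNAJC3 at 514 (0.651), DNAJB9 at 614 (0.623), HSP90B1 at 696 (0.601), HERPUD1 at 1989 (0.424) and ATF6 at 2271 (0.389). These libraries share their siRNA groups and lanes, and the values are a description.

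Matches to the siRNA guides were looked for in the 3′UTRs of the members. The 7 bases that pair with guide positions 2 to 8 are acattgt for siMESH1-CDS and gctaact for siMESH1-7002. The first was found in 1 member, DNAJB9, and in 14.3% of 18551 genes with a 3′UTR, and the second in 1 member, ATF6, and in 5.52%. DNAJB9 was higher with siMESH1-CDS, and ATF6 was not called with siMESH1-7002.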

How the data were processed

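RNA-seq was measured in 12 RCC4 libraries (stranded mRNA kit, single-end reads of 50 bases). Per the labels and methods, the authors aligned reads to hg19 with HISAT2 and counted them per gene with HTSeq. Versions and the annotation are not given in the sources used here. The deposited values are whole-number counts, not normalised. The 5 rows per file that name no gene (38.9% to 49.3% of reads) were left out. The authors' DESeq2 tables hold their own comparisons and were not used.

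Within each experiment, grouped by the labels, the test was edgeR's quasi-likelihood F test (edgeR 4.0.16, R 4.3.3, filterByExpr, TMM), with Benjamini-Hochberg adjustment across every tested gene and 0.05 as threshold. The difference between siRNAs came from 1 fit of 12 libraries. A level of 1 CPM stands for 24.8 to 49.1 reads. For GC correction, a lowess curve (span 0.3) of log2 CPM against transcript GC content (GENCODE release 29) was fitted in every library and entered as an offset. The other alternatives were DESeq2 1.42.0, library size scaling, other low-count filters, a lane covariate, single lanes, a replicate term and leaving out each library.

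Members and lists were chosen with earlier results of these data known. All members are named, and up to 4 genes per list that were called the same way with each siRNA and had a mean of at least 10 CPM in each experiment, ranked by the smaller of their 2 changes. On simulated counts of the siMESH1-CDS comparison (13206 genes), edgeR recovered 160 of 200 genes changed 4-fold, and of the siMESH1-7002 comparison (13488 genes), 200 of 200. It made 4 and 11 false calls. The simulated counts held no GC trend and only changes of 4-fold, so the recovery of smaller changes was not assessed. For 3 libraries against 3, the smallest two-sided p of an exact permutation test is 0.1.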

Additional observations from a re-analysis of the deposited data

Results flagged for a closer look

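The change differed between the siRNAs for 4 members by a test of the difference itself (edgeR quasi-likelihood test on 12 libraries), a smaller share than the 69.7% of all 14154 genes that passed it. On the log2 scale, siMESH1-CDS minus siMESH1-7002 was 1.04 for ATF6 and 0.94 for HERPUD1, each higher with siMESH1-CDS in 3 of 3 libraries. It was -0.45 for HSPA5, whose 3 siMESH1-7002 libraries were 38.7% above siNT in the mean. It was -5.22 for SDF2L1, which had 6 to 12 reads in the siMESH1-CDS libraries and lay in the GC class whose median change was -3.67. With GC correction the 4 differences were 0.43, 1.01, -0.60 and -1.62, in the same order. The siRNA and the experiment cannot be told apart.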

How the results depend on the processing

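The changes of XBP1, HSPA5, DNAJB9, DNAJC3 and EDEM1 with siMESH1-7002, and of ATF6, DNAJB9, HERPUD1, EDEM1 and SDF2L1 with siMESH1-CDS, kept their direction and their call under every alternative that could test them at the threshold of 0.05. SDF2L1 was not tested with siMESH1-CDS when at least 10 reads were asked of every library, which left 0 members called lower. GC correction raised the members whose change differed between the siRNAs to 8, where 61.5% of all genes differed. Without siMESH1-CDS replicate 3 there were 7, where 77.6% of all genes differed, in a range of 4 to 7 over single libraries left out. Members called lower with siMESH1-7002 then ranged from 0 to 1, the latter without siNT replicate 3. Among list genes, calls of HSPA13, SRP14, CREB3L2 and CREBZF with siMESH1-7002 and of FAM8A1, C22orf28 and TRIB3 with siMESH1-CDS were lost when some single libraries were left out. A single fit of all 4 groups ended the siMESH1-7002 calls of HSPA13, SRP14, CREB3L2, CREBZF, PDIA3, CANX, FAM8A1 and EDEM3. It also ended those of NPLOC4, SEC61G, SPCS3, TRAM1, GOLGB1, C22orf28, TRIB3 and ATF3 (edgeR adjusted p = 0.0585 to 0.540 over all of these). Depth limits ERN1, with 50 to 115 reads in siMESH1-CDS libraries, and SDF2L1, with 6 to 12. The causes of the changes below were not tested.

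Signs turned as follows. With siMESH1-CDS, GC correction gave -0.022 for HSPA5, -0.087 for HSP90B1, -0.071 for HSPA13, -0.049 for SRP14 and 0.45 for TRIB3. With siMESH1-7002 it gave 0.049 for ERN1 and 0.018 for SDF2L1. For the difference between siRNAs it gave 0.49 for ERN1, 0.34 for XBP1, -0.42 for HSP90B1, -0.19 for DNAJB9 and -0.39 for DNAJC3, and DESeq2 gave 0.067 for ERN1 and 0.011 for XBP1. ERN1 with siMESH1-CDS was -0.11 in the fit of all 4 groups, -0.13 with at least 10 reads in every library and -0.18 with library size scaling, and HSPA5 was -0.017 and -0.090 under the latter 2. Leaving out single libraries gave ERN1 -0.36 to 0.35 with siMESH1-CDS, -0.092 to 0.0030 with siMESH1-7002 and -0.39 to 0.22 for the difference, and HSP90B1 -0.016 to 0.30 for the difference.

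Deviations of same-numbered libraries correlated at -0.054, 0.24 and 0.13 in experiment 1 and at -0.068, 0.041 and -0.079 in experiment 2. For libraries of other numbers the values ran from -0.28 to 0.18 and from -0.087 to 0.15. With 3 libraries per group these values cannot decide whether replicate numbers pair the libraries, and the main fits used no pairing. The replicate block left 7 and 6 members called higher with siMESH1-CDS and siMESH1-7002, and turned ERN1 with siMESH1-CDS to -0.025. The block with GC correction gave -0.022 for HSPA5, -0.088 for HSP90B1, -0.070 for HSPA13, -0.050 for SRP14 and 0.41 for TRIB3 with siMESH1-CDS, and 0.047 for ERN1 and 0.019 for SDF2L1 with siMESH1-7002.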
